A study of Mus musculus with 52 samples.

Results

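This account describes the 3931 H3K27ac peaks that were called in the suprachiasmatic nucleus (SCN) of mice after 1 h of light and that touched no peak called in darkness. They were chosen from the 40403 peaks of the deposited light list by their −log10 q-value, set by the peak caller the authors ran, which had to be at least 5, and by the lack of even 1 bp of overlap with the 38447 peaks of the dark list. Of the 22325 light peaks that reached the q-value minimum they make up 17.6%. They are called light-only peaks here, and the other 18394 light peaks above the minimum, which overlapped a dark peak, are called shared light peaks. The same rule applied in the opposite direction gave 7018 dark-only peaks, 24.7% of the 28456 dark peaks above the minimum. With no minimum the order was the opposite, with 14116 light peaks that touched no dark peak and 12550 dark peaks that touched no light peak. Each list comes from 1 library, so everything said of the peaks themselves is a description of these libraries, without a test.

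The SCN is the hypothalamic pacemaker that times daily rhythms, and light in the subjective night resets it through retinal input. All groups used here were SCN of male mice aged 11 to 12 weeks. ChIP-seq (sequencing of DNA bound to a given histone mark) was done on wild-type (WT) mice kept in the dark or given 1 h of light, with 1 pool of 2 SCN pairs per condition and no circadian time given in the sources used here. RNA-seq libraries, each a pool of 6 SCN pairs, came from WT littermates and Npas4-/- mice (KO in the labels) in the dark or after 1 h of light at circadian time (CT) 17, with 3 libraries in each of the 4 groups. A separate light-pulse experiment on WT mice held darkness at CT17 (4 libraries) and CT23 (2 libraries) and light of 0.5 h (4 libraries), 1 h, 3 h and 6 h (2 libraries each). In each group of 4 the titles give replicate numbers 1 and 2, each with and without a suffix s. The main fit took these as 4 separate libraries, and whether same-numbered ones are independent was not tested. Npas4-/- mice lack a neuronal activity-dependent transcription factor, and nothing in the sources used here limits the deletion to a cell type. The sources used here do not say whether libraries of a group came from separate days; p-values reflect only how far these libraries differ, part of which may be technical.

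Acetylation of lysine 27 on histone H3 (H3K27ac) is written by p300 and CBP and marks active promoters and enhancers, whereas trimethylation of lysine 4 (H3K4me3) sits mainly at promoters. In neurons, activity acts through calcium, cAMP and MAP kinase on CREB and SRF, which switch on immediate-early genes such as Fos, and the factors these encode act on enhancers of later genes. CREB binds the cAMP response element (CRE), FOS and JUN proteins bind the AP-1 site, and EGR proteins bind a GC-rich site. In the SCN this pathway links light to the clock genes Per1 and Per2.

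Promoter sequences of genes that combined a light-only peak at the promoter with a light response of their RNA show which letters lie there; most genes with such a promoter peak did not respond, as counted below. Each line holds the 250 bases before a gene start on the gene's strand, 5′ to 3′, from RefSeq (GRCm38.p6, the same build as mm10). Capitals mark the CRE core TGACG, the EGR site GCGTGGG and the E-box CACGTG, on either strand; the full CRE, TGACGTCA, contains the CRE core. Nr4a1, Maff and Nab2 were taken because they are among the most light-induced genes with a light-only peak within 1 kb of the start. Spred2, Bysl and Otud1 were taken because the light-only peak overlaps the window and their RNA rose, and Bysl and Otud1 were chosen after their values were seen. Each window shown holds a marked site. C2cd4b (log2 fold change 2.98 in WT mice) and Sertad1 (2.09) also had a light-only peak within 1 kb. Lmna (0.74) and Traf3ip1 (0.66) also rose with such a peak over the window. The windows of these other genes held none of the marked sites and are not shown.
Nr4a1 (chr15:101266596-101266845, plus strand): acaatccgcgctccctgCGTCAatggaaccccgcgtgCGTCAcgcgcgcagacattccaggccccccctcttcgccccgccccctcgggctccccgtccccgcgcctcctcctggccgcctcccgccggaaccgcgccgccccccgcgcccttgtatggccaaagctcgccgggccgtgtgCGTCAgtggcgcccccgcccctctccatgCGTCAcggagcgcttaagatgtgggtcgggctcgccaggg
Maff (chr15:79347270-79347519, plus strand): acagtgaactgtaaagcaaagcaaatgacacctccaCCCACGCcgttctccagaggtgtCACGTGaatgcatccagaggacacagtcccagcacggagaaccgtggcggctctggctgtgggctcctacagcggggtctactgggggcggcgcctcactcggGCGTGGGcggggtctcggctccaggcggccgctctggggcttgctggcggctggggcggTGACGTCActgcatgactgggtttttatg
Nab2 (chr10:127666704-127666953, minus strand): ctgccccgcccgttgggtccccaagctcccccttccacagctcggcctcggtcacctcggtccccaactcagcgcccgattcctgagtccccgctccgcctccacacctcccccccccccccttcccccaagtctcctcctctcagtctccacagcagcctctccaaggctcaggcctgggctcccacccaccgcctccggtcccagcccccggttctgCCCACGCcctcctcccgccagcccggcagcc
Spred2 (chr11:19924192-19924441, plus strand): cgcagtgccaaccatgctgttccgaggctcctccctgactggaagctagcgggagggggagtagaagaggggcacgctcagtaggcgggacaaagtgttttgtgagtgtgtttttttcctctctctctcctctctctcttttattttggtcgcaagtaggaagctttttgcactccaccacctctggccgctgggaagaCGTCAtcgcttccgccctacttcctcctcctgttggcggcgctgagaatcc
Otud1 (chr2:19657481-19657730, plus strand): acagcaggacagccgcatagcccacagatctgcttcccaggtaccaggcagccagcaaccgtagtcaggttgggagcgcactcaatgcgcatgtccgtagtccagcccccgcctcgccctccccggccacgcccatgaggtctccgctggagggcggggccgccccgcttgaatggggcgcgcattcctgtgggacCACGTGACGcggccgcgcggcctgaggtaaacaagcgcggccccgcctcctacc
Bysl (chr17:47611493-47611742, minus strand): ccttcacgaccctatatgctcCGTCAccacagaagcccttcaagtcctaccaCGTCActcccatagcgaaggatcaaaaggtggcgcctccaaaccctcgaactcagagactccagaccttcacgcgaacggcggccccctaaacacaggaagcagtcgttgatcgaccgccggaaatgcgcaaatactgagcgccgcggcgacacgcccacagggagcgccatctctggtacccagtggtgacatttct

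The Nr4a1 window held 4 copies of the CRE core. Its light-only peak, chr15:101266320-101266571, ended 24 bases short of the window on the upstream side. The Maff window held 1 full CRE, 2 EGR sites and 1 E-box. Its peak, chr15:79347562-79347936, covered 8 of the 300 bases of the window that runs from 250 bases before to 50 after the start. All 8 lie after the start, so the peak covered none of the bases or marked sites shown. The Nab2 window held 1 EGR site, and its peak lay 89 bases away. In the Otud1 window the E-box and the CRE core overlapped in the run CACGTGACG.

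Across the genome, 428 of 20493 promoter windows of 300 bases overlapped a light-only peak, and they belonged to 397 genes. Of these genes 6 rose and 3 fell in WT mice after 1 h of light. Among all 15001 genes tested 335 (2.23%) rose and 51 (0.34%) fell. A full CRE was found in 25 of the 428 windows (5.84%), against 2.31% of all windows and 4.23% of windows that overlapped a shared light peak. The CRE core was found in 40.2%, against 24.2% of all windows and 36.7% of those with a shared light peak. The AP-1 site TGANTCA was found in 16 (3.74%), against 7.10% of all windows and 3.76% of those with a shared light peak. The EGR site was found in 9.58%, against 6.58% of all windows, 9.41% of those with a shared light peak and 10.9% of those with a dark-only peak. The E-box was found in 10.3%, against 8.04%, 9.71% and 8.73% in the same order. Windows with a dark-only peak held a full CRE in 3.85%, the CRE core in 30.03% and the AP-1 site in 3.99%. The CArG box of SRF was found in 9 windows (2.1%), against 1.52% of all, 1.03% with a shared light peak and 0.592% with a dark-only peak. The letters TCGTG, a core bound by NPAS4 with ARNT partners, were found in 28.3%. The share was 17.8% of all windows, 22.5% of those with a shared light peak and 22.2% of those with a dark-only peak. Median GC content was 60.3% in the windows with a light-only peak and 57.0% in all windows. It was 62.7% in those with a shared light peak and 63.3% in those with a dark-only peak. The part of GC content in these shares was not tested. A match describes letters and not a bound site, and these windows leave out the peaks away from gene starts.

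Light-only peaks were narrower and weaker than shared light peaks. Their width had a median of 240 bp (146 to 1325), against 432 bp for shared light peaks and 215 bp for dark-only peaks. The fold enrichment given by the authors' peak caller had a median of 5.58 (4.05 to 10.8), against 6.36 for shared light peaks and 5.54 for dark-only peaks. The median −log10 q was 6.45 (5.03 to 22.1), against 8.93 and 6.05. Widths below 200 bp made up 31.2% of the light-only peaks. These values took part in the choice of the peaks or come from the same library, so they describe the set. The −log10 q values took only 120 distinct levels, and 712 light-only peaks shared the value 5.63. Just above the minimum lay a peak within Iqsec1 at 5.03 and a pair at 5.10 near Cnot11 and within Clasp1; just below it lay 3 peaks at 4.94, near Rpl41 and Wnt7a and within Srgap3. At a −log10 q of 10 or more 218 light-only peaks were left, 2.91% of the 7488 light peaks that strong, and 393 dark-only peaks, 4.12% of 9544 dark peaks.

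**Figure D1:**
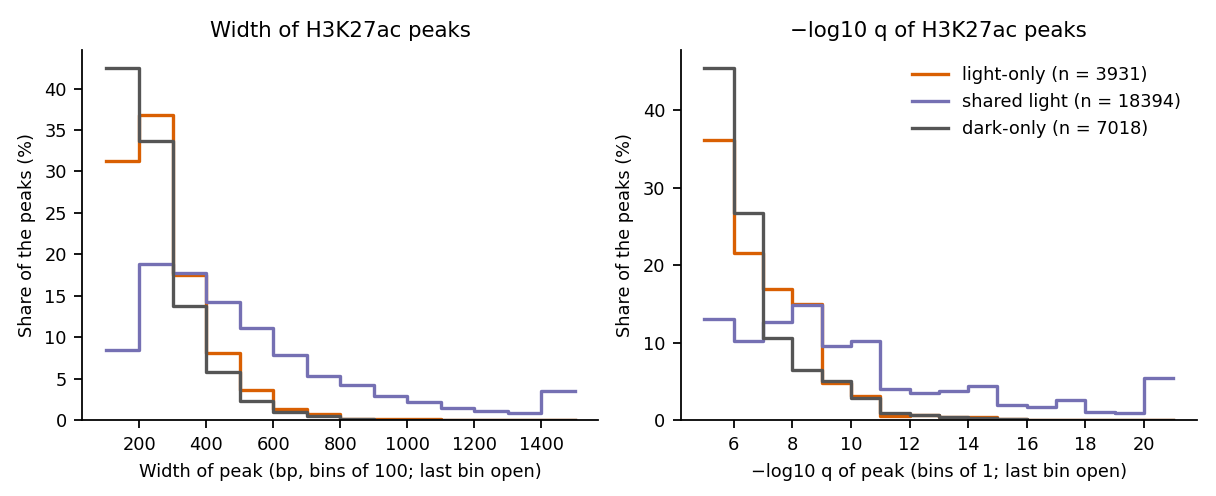
Share of peaks (%) by width in bp (left, bins of 100 bp) and by −log10 q of the authors' peak caller (right, bins of 1), for 3931 light-only, 18394 shared light and 7018 dark-only peaks, each set from 1 library. The light-only and dark-only curves lie close together at low width and low −log10 q, with median widths of 240 and 215 bp, while shared light peaks reach further to the right, with a median of 432 bp.

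Most light-only peaks lay beside a dark peak and not far from any. The median gap to the nearest dark peak was 460 bp, 2490 peaks (63.3%) had one within 1 kb and 828 (21.1%) had none within 10 kb. A peak beside a dark peak can be a separate summit of the same acetylated region. When dark peaks were extended by 1 kb on each side, 1441 light-only peaks were left. The rest of the set is therefore given both as a whole and, where it matters, for these 1441.

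**Figure D2:**
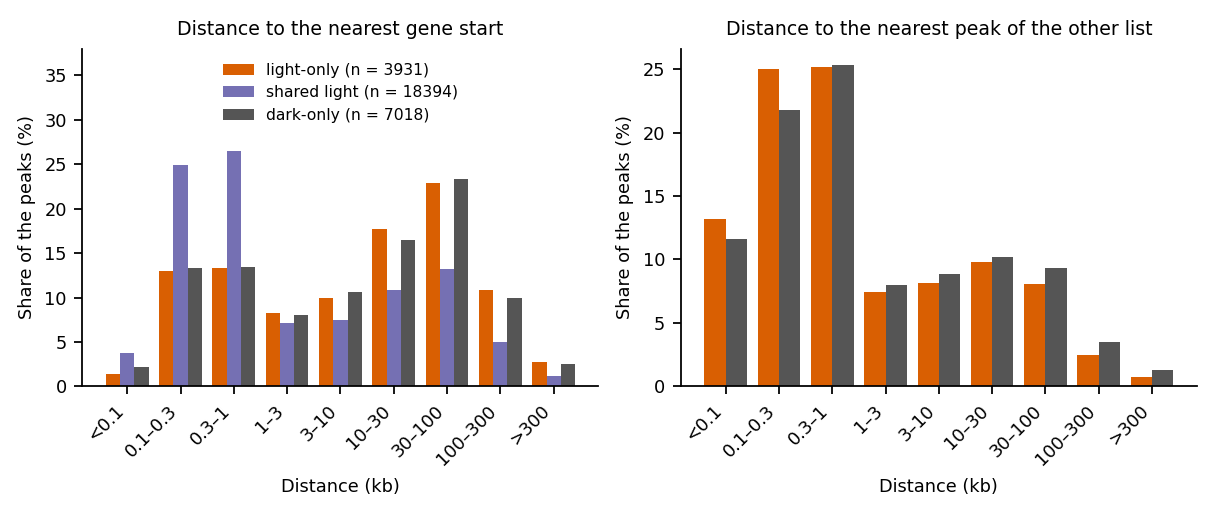
Share of peaks (%) by distance in kb from the summit to the nearest gene start (left; light-only, shared light and dark-only peaks) and from the peak to the nearest peak of the list from the other lighting condition (right; light-only and dark-only peaks); bins are unequal and widen to the right. Shared light peaks pile up within 1 kb of gene starts (55.2%, against 27.7% of light-only peaks), and 63.3% of light-only peaks have a dark peak within 1 kb. Gene starts include either end of a gene whose start site was not used.

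The light-only peaks were mostly distal. A gene start lay within 1 kb of the summit of 1087 of them (27.7%), against 55.2% of shared light peaks and 28.9% of dark-only peaks. The median distance was 13.8 kb, against 0.661 kb for shared light peaks. Gene starts here include either end of a gene whose start site was not used. Such an end was the nearest coordinate for 216 of the 1087. H3K4me3 from either the dark or the light list overlapped 1748 light-only peaks (44.5%), 78.4% of shared light peaks and 47.2% of dark-only peaks. The H3K4me3 at light-only peaks was rarely private to light: 1603 peaks overlapped both H3K4me3 lists, 119 the dark list alone and 26 the light list alone. Of the 1087 peaks at gene starts, 1056 had H3K4me3, and a further 692 peaks had H3K4me3 away from the gene starts used here. The remaining 2152 peaks (54.7%) had neither a gene start nor H3K4me3, against 21.2% of shared light peaks. Gene bodies held 66.5% of the light-only peaks and 70.2% of the shared ones. Among the 1441 peaks at least 1 kb from dark peaks, 21% lay at gene starts and 35.3% overlapped H3K4me3. By gene starts and H3K4me3 the light-only peaks were thus closer to the dark-only than to the shared light peaks.

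**Figure D3:**
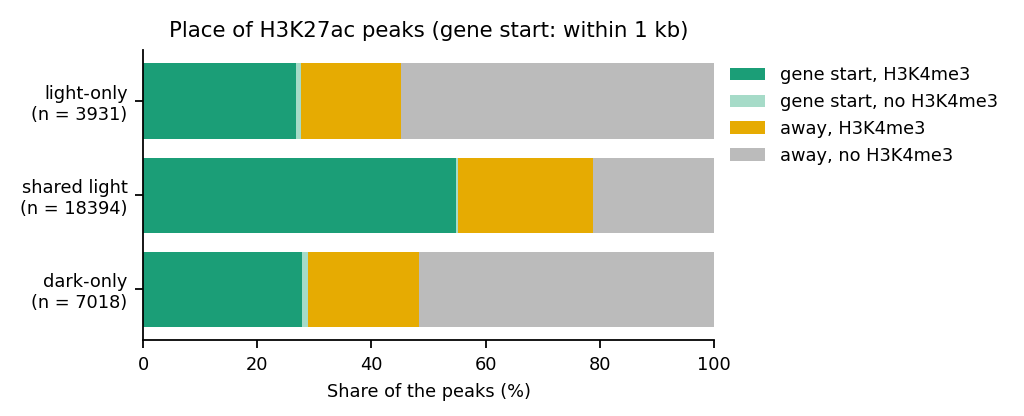
Share of peaks (%) within 1 kb of a gene start or away from one, with or without H3K4me3 from either list, as stacked bars that sum to 100%, for light-only, shared light and dark-only peaks. Peaks away from starts and without H3K4me3 make up 54.7% of light-only peaks and 21.2% of shared light peaks. Gene starts include either end of a gene whose start site was not used.

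The strongest light-only peaks did not follow this pattern. Of the 12 with the highest fold enrichment, 11 lay within 1 kb of the start or end of the nearest gene and overlapped H3K4me3. The highest was at Arfgap2, which encodes a GTPase-activating protein of vesicle transport (chr2:91265324-91265635, fold 10.8, −log10 q 22.1). Strada, a partner of the kinase LKB1, followed (chr11:106193126-106193522, fold 9.77), then Sec22a (chr16:35364079-35364310, fold 9.49) and Tfip11, a splicing factor gene (chr5:112325908-112326196, fold 9.25). The peak at Tfip11 lay 16.9 kb from any dark peak, that at Amn1 46.2 kb, that at Spice1 47.0 kb and that at Vps18 61.5 kb, whereas those at Arfgap2, Strada and Sec22a had a dark peak at 0.36, 0.279 and 0.295 kb. The exception lay inside Celf4, the gene of a neuronal RNA-binding protein, 72.3 kb from its nearer end and without H3K4me3 (chr18:25549334-25550173, fold 8.88). None of the 12 nearest genes passed the test in WT mice at 1 h. Of all genes tested 2.23% rose and 0.34% fell, so none among 12 is near the share of all genes. Arfgap2 stood at 72.3, 77.7 and 77.2 CPM (counts scaled to library size) in the WT dark libraries and at 68.9, 73.9 and 72.9 after light. Its log2 fold change was −0.08 ± 0.05 (SE, n = 3 against 3; adjusted p = 0.822, edgeR). Strada, with −0.01 ± 0.07, and Amn1, with 0.00 ± 0.09, likewise overlapped between dark and light.

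Most light-only peaks stood alone. Joined over gaps of up to 5 kb, they formed 3472 groups, of which 3100 held a single peak and 16 held 4 or more. The largest group held 9 peaks over 14.4 kb ahead of Inpp5f, which encodes a phosphoinositide phosphatase (chr7:128577149-128591583). A cluster at Vgll4 held 6 peaks, and those at Cryaa, Celf4, Ntm and Zfhx3 held 5 each. Zfhx3 encodes a transcription factor needed for normal SCN rhythms; its cluster lay within the gene (chr8:108702758-108710558). Inpp5f RNA was 209, 206 and 208 CPM in the WT dark libraries and 324, 318 and 328 after 1 h of light, without overlap. That is a log2 fold change of 0.64 ± 0.07 (adjusted p = 0.000102, edgeR). Zfhx3 RNA overlapped between dark (135, 215 and 167 CPM) and light (178, 153 and 182 CPM) and did not pass the test (log2 −0.01 ± 0.22).

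The nearest gene start assigned the 3931 peaks to 2739 genes; for 966 peaks the nearest coordinate was the end of a gene whose start site was not used here. The RNA of these genes took no part in the choice of the peaks and was tested with edgeR's quasi-likelihood test, with Benjamini-Hochberg adjustment over all genes. Totals were 26638939 to 32097975 counts per library in the Npas4 experiment and 12477382 to 30149286 in the light-pulse experiment. Median RPKM (the deposited RNA level per transcript length and depth) in WT darkness was 9.86 for the genes nearest to light-only peaks, 11.1 for those nearest to shared light peaks, 8.34 for those nearest to dark-only peaks and 2.44 for all 21999 genes. The 8 SCN neuron markers ran from 9.85 RPKM (Zfhx3) to 411 RPKM (Avp) in WT darkness, with Vip at 404 and Six6 at 38.8. Markers of neighbouring hypothalamus were present too, from 0.663 RPKM (Agrp) to 452 RPKM (Oxt), with Trh at 76.2 and Pomc at 42.1. The neighbouring markers summed to 366 to 751 CPM in the WT dark libraries and 510 to 731 after light. In bulk tissue fewer cells of a type and less RNA per cell cannot be told apart. Astrocyte markers summed to 541 to 608 CPM in the WT dark libraries and 514 to 640 after light, oligodendrocyte markers to 812 to 1222 and 965 to 1050, and microglial markers to 145 to 166 and 155 to 161. Markers of SCN neurons summed to 919 to 1017 and 894 to 1672 CPM, and 1 of their 8 genes rose (Rora). Of the 26 glial markers 1 passed the test, an oligodendrocyte marker that was higher after light, and no marker of these lists stood at 0 in WT darkness.

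After 1 h of light in WT mice, 110 of the 2583 tested genes nearest to a light-only peak rose (4.26%) and 10 fell, against 2.23% rising and 0.34% falling among all 15001 genes tested. With the replicate number as a block, since same-numbered libraries deviated together, 174 genes (6.74%) rose, against 3.70% of all genes. Of the genes nearest to a shared light peak 259 of 8184 rose (3.16%), and of those nearest to a dark-only peak 94 of 3882 (2.42%). These lists share genes: of those nearest to a light-only and to no dark-only peak 69 of 1376 rose (5.01%), and of those nearest to a dark-only and to no light-only peak 53 of 2675 (1.98%). The share was 5.84% (36 of 616) for genes nearest to 2 or more light-only peaks, 4.30% (53 of 1232) for genes nearest to distal ones and 4.25% (46 of 1082) for those nearest to peaks at least 1 kb from dark peaks. Genes nearest to 2 or more shared light or dark-only peaks were not counted. Most nearest genes did not move: the median log2 fold change was 9.5e-05, against −0.01 for all genes tested. Genes nearest to a light-only and to no dark-only peak had a median of 9.12 RPKM in WT darkness. The median of 2.44 RPKM given above is over all 21999 genes and not over the 15001 tested. The part of RNA level in these shares was not tested.

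Seen from the genes, 152 of the 335 genes that rose had a light-only peak within 50 kb of the gene body (45.4%), against 35.7% of the tested genes with coordinates. A dark-only peak lay that close to 48.4% of them, against 49.4%, and a shared light peak to 89.0%, against 79.8%. The genes that rose had a median span of 14.96 kb, against 25.01 kb, and the part of gene length in these shares was not tested. A shared light peak thus lay near most of the genes that rose.

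In Npas4-/- mice, 82 of the same 2583 genes rose (3.17%), against 1.45% of all genes tested. The targeted gene, Npas4, had 8.64, 8.20 and 8.34 CPM in the WT dark libraries and 13.7, 10.7 and 14.0 after light. The libraries labelled KO had 5.27, 10.1 and 10.4 CPM in the dark and 4.55, 7.63 and 5.19 after light. In the dark the genotypes overlapped, and after light the libraries labelled KO were lower. Which stretch of the gene is deleted is not given in the sources used here, so a count over the whole gene does not check the labels. The response to light differed between genotypes for 2 genes of all those tested (0.0133%), Fos and Nr4a1, and both are nearest to a light-only peak. Both are also nearest to a shared light and to a dark-only peak. An unadjusted p under 0.05 was found for 60 of the 2583 genes and for 342 of all 15001, a like share, and DESeq2 called 7 of the nearest genes among 11 in all. Neither gene was called when KO dark library 2 or 3, KO light library 3, or any 1 of the 6 WT libraries was left out.

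**Figure D4:**
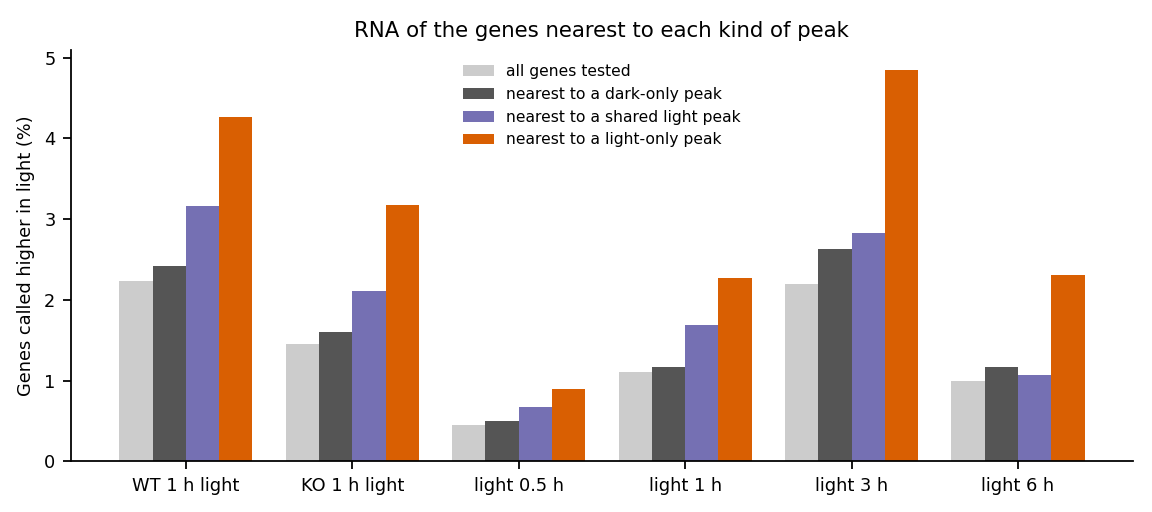
Genes called higher in light (% of tested genes, bars from 0) among all genes tested and among genes nearest to dark-only, shared light and light-only peaks, in WT and KO mice after 1 h and in the light-pulse experiment after 0.5, 1, 3 and 6 h. In each of these comparisons the bar of genes nearest to light-only peaks is the tallest, from 0.899% at 0.5 h to 4.85% at 3 h.

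In the light-pulse experiment the share of nearest genes that rose was 0.899% after 0.5 h (23 of 2557; 0.454% of all 14524 genes tested), 2.27% after 1 h (58; 1.11% of all), 4.85% after 3 h (124; 2.20% of all) and 2.31% after 6 h (59; 0.998% of all). At 3 h 39 nearest genes fell (1.53%, against 1.05% of all), and at 6 h 15 fell (0.587%, against 0.413% of all). For peaks at least 1 kb from dark peaks the share that rose at 0.5 h was 0.376% (4 of 1065 genes), below the share of all genes; at 1 h, 3 h and 6 h it was 2.07%, 5.35% and 2.63%. The comparisons at 0.5, 1 and 3 h share their dark libraries. At 3 h, 75 of 1218 genes nearest to distal light-only peaks rose (6.16%), against 2.83% of genes nearest to any shared light peak. Of genes nearest to 2 or more light-only peaks 57 of 610 rose (9.34%), and of those nearest to 4 or more 17 of 112 (15.2%). Genes nearest to as many shared light or dark-only peaks were not counted, so these 2 shares have no like comparison. Genes nearest to 4 or more light-only peaks had a median of 11.8 RPKM in darkness. With the batch of the labels as the term in place of the library suffix, 168 nearest genes rose at 1 h (638 of all genes) and 269 at 3 h (929 of all genes). The 1 h, 3 h and 6 h libraries all belong to batch 2 of the labels, so light cannot be compared within batch 1. Without light 3 h library 2 the count at 3 h was 63 (158 of all genes). At 6 h it was 27 without dark CT23 library 2, 37 without dark CT23 library 1 and 36 without light 6 h library 1.

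Immediate-early genes, the transcription factors and signalling proteins induced within minutes of activity, mostly rose, whether or not a light-only peak lay near them. Of 34 genes of this class 17 had a light-only peak as nearest gene or within 50 kb (50%), against 36.9% of all tested genes with coordinates. Of these 17, 13 rose in WT mice after 1 h and none fell, with a median log2 fold change of 2.93. Of the 17 without such a peak 15 rose, with a median of 2.73. Within 50 kb alone, a dark-only peak lay near 18 of the 34 and a shared light peak near 30. Among all tested genes with coordinates these shares were 49.4% and 79.8%. The 15 nearest genes with the largest change had 1 to 4 light-only peaks assigned and 2 to 10 shared light peaks within 50 kb.

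Fos, a subunit of AP-1, had 8.16, 7.97 and 7.84 CPM in the WT dark libraries and 285, 241 and 256 after light. In the libraries labelled KO it had 17.9, 24.8 and 22.4 CPM in the dark and 136, 232 and 209 after light. The KO libraries were thus higher in the dark and lower in the light than the WT libraries, without overlap in either. The log2 fold change was 5.03 ± 0.20 in WT and 3.15 ± 0.18 in KO mice, a difference of −1.88 ± 0.25 (KO minus WT; adjusted p = 0.0453, edgeR). The light-only peak assigned to Fos lay far off, 49.5 kb downstream of the start (chr12:85523233-85523748, fold 6.36), while 8 shared light peaks lay within 50 kb of the gene.

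Nr4a1, an orphan nuclear receptor gene, had 8.09, 8.79 and 10.2 CPM in the WT dark libraries and 241, 186 and 211 after light. In the libraries labelled KO it had 19.9, 23.5 and 22.0 CPM in the dark and 122, 184 and 167 after light, again higher in the dark and lower in the light without overlap. The log2 fold change was 4.55 ± 0.17 in WT and 2.86 ± 0.15 in KO mice, a difference of −1.70 ± 0.21 (adjusted p = 0.0446, edgeR). Its peak was that beside the window with 4 CRE cores, with a dark peak 0.196 kb away. In the light-pulse experiment the log2 fold change of Nr4a1 was 3.78 ± 0.12 at 1 h, 0.76 ± 0.15 at 3 h and −0.46 ± 0.16 at 6 h, the last not past the test (adjusted p = 0.31, edgeR).

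Fosb, another AP-1 subunit, rose from 1.13, 1.51 and 1.07 CPM to 210, 169 and 167 CPM in WT mice (log2 7.19 ± 0.29). Its light-only peak lay inside the gene, 1.04 kb from the start (chr7:19308894-19309072, fold 5.32), and overlapped H3K4me3. Junb rose from 6.51, 7.12 and 6.60 to 210, 176 and 191 CPM, and its peak lay 5.93 kb upstream without H3K4me3 (chr8:84984577-84984791). Maff, a small MAF factor, rose from 1.98, 1.74 and 2.41 to 46.2, 33.5 and 44.1 CPM (log2 4.33 ± 0.19), and its promoter peak was 18.8 kb from the nearest dark peak. The peaks of Fos, Nr4a1, Fosb and Junb, by contrast, had a dark peak at 0.415, 0.196, 0.313 and 0.395 kb. The related Mafk also had a light-only peak at its start that lay 5.28 kb from any dark peak (chr5:139791677-139791999). Mafk RNA rose from 12.1, 10.6 and 13.4 to 22.5, 18.2 and 22.5 CPM (log2 0.81 ± 0.12).

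Arc, whose protein acts at synapses, rose from 6.51, 5.90 and 6.33 to 104, 72.7 and 93.9 CPM. Its peak lay outside the gene, 0.181 kb from a dark peak and without H3K4me3, and was the strongest among the 15 most changed nearest genes (chr15:74666546-74666959, fold 8.46). Nab2, a corepressor of EGR factors, rose from 6.81, 7.45 and 5.86 to 26.7, 21.8 and 26.8 CPM (log2 1.90 ± 0.14). Btg2 (log2 2.93 ± 0.15), Klf10 (2.12 ± 0.16), Sertad1 (2.09 ± 0.20) and Ier2 (1.80 ± 0.13) also rose. Egr1 and Egr3, which encode zinc finger factors, rose by log2 6.23 ± 0.35 and 6.29 ± 0.32, yet neither was the nearest gene of a light-only peak. The light-only peaks within 50 kb of them were nearest to Reep2 and Etf1 for Egr1 and to Bin3 for Egr3. Npas4 had 1 within 50 kb, nearest to Brms1; its own RNA rose by log2 2.14 ± 0.12 at 0.5 h of the light pulse and did not pass the test at 1 h in the Npas4 experiment (0.61 ± 0.23).

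**Figure D5:**
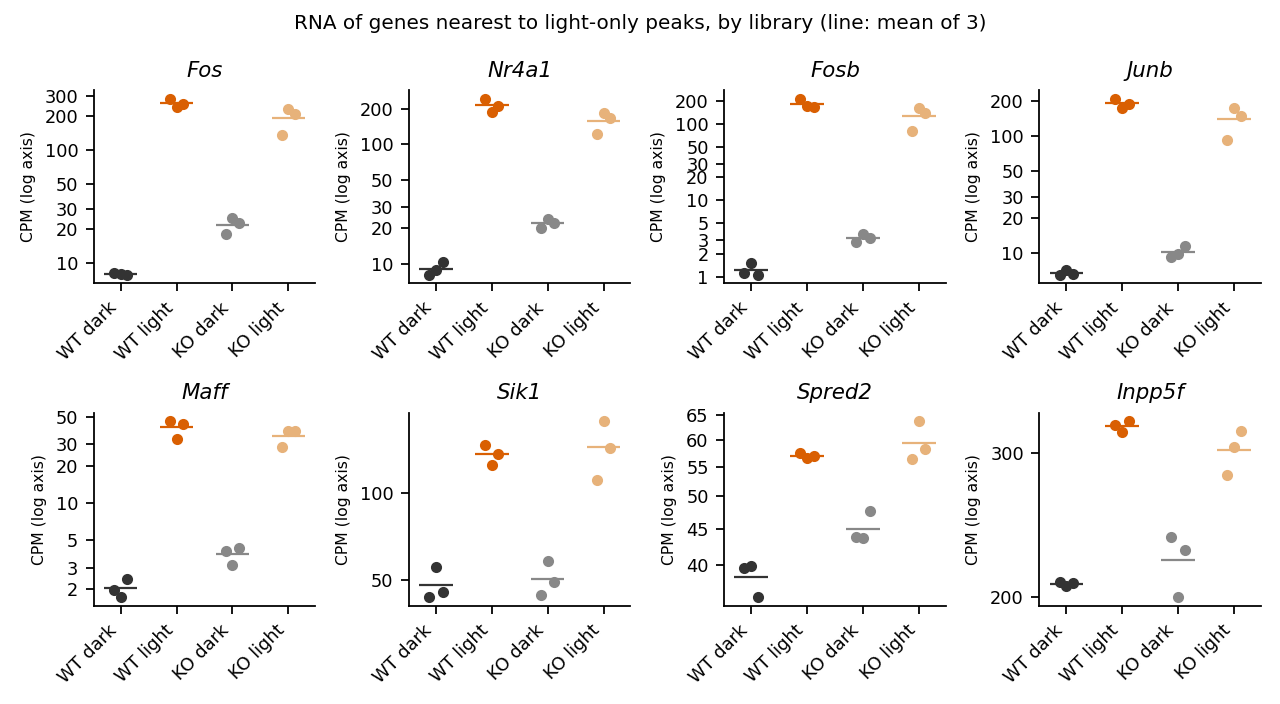
RNA in CPM (log axis) of 8 genes nearest to light-only peaks, with 1 point per library (n = 3) and a line at the group mean, in WT and KO mice in the dark and after 1 h of light. In WT mice all light points lie above all dark points for each of these genes; for Fos, Nr4a1, Fosb, Junb, Maff and Spred2 the KO dark points lie above the WT dark points.

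Feedback genes of the MAP kinase and cAMP pathways damp the signal. Of these, 17 of 26 had a light-only peak as nearest gene or within 50 kb (65.4%, against the 36.9% above). By the narrower rule of 50 kb alone, 12 of the 26 had a dark-only peak, against 49.4% of all tested genes with coordinates. Of the 17 with a light-only peak, 7 rose in WT mice after 1 h and none fell, with a median log2 fold change of 0.39. Of the 9 without such a peak 5 rose, with a median of 0.56. Dusp4, a MAP kinase phosphatase, rose from 6.33, 6.13 and 5.39 to 68.8, 55.5 and 62.2 CPM (log2 3.38 ± 0.16), with a light-only peak of 934 bp 0.817 kb from the gene (chr8:34806138-34807071). Rrad, a small GTPase that restrains calcium channels, rose by log2 4.76 ± 0.21 and had a pair of light-only peaks near the gene. Sik1, a kinase that limits CREB signalling and the clock's response to light, had 6 assigned light-only peaks. It rose from 43.5, 55.2 and 45.4 to 146, 125 and 136 CPM, and from 44.2, 57.8 and 49.2 to 111, 176 and 143 CPM in the libraries labelled KO. The log2 changes were 1.5 ± 0.16 in WT and 1.51 ± 0.16 in KO; their difference was 0.01 ± 0.22 and did not pass the test.

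The Spred and Sprouty proteins restrain Ras. Spred2 rose from 39.6, 39.9 and 36.1 to 57.5, 56.5 and 56.9 CPM (log2 0.56 ± 0.06), with a light-only peak over the promoter shown above (chr11:19924084-19924313). Spred3 had the stronger peak (chr7:29168768-29169499, fold 8.72), 12.8 kb from any dark peak. Its RNA at 1 h was 50.5, 55.0 and 49.9 CPM, above the dark values of 45.6, 37.8 and 43.5 but not past the test (log2 0.29 ± 0.10, adjusted p = 0.235, edgeR). At 3 h and 6 h of the light pulse Spred3 rose by log2 0.97 ± 0.09 and 1.05 ± 0.10. Spry2 (log2 1.11 ± 0.09) and Spry4 (1.70 ± 0.11) rose at 1 h, with light-only peaks 2.01 kb from the Spry2 start and 0.287 kb from the nearer end of Spry4.

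Core clock genes had light-only peaks most often among the 5 pathway lists, in 17 of 24 cases (70.8%, against 36.9% of all tested genes). That count takes peaks within 50 kb and peaks farther off that are nearest to the gene. By the narrower rule of 50 kb alone, a dark-only peak lay near 15 of the 24, and a shared light peak near all 24. Among all tested genes with coordinates these shares were 49.4% and 79.8%. Of the 17 with a light-only peak, 3 rose in WT mice at 1 h: Per1, Per2 and Rora. Per2, a repressor of the clock, rose from 53.0, 52.0 and 51.5 to 114, 123 and 145 CPM (log2 1.29 ± 0.09). It had 7 light-only peaks within 50 kb. A pair lay inside Per2, 3.40 and 2.02 kb from its nearer end (chr1:91455616-91456086 and chr1:91457226-91457694), and 5 lay between Per2 and Traf3ip1, from chr1:91480775 to chr1:91494519, the last of them at the Traf3ip1 start with fold 7.15. Traf3ip1, which encodes a ciliary transport protein, rose too, from 18.7, 19.6 and 19.6 to 32.4, 27.7 and 31.5 CPM (log2 0.66 ± 0.10). Per1 rose from 50.1, 48.9 and 46.8 to 223, 215 and 215 CPM, yet its light-only peak lay 26.3 kb away inside Aloxe3, and 14 shared light peaks lay within 50 kb of it.

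Rora, a nuclear receptor that activates Arntl, held 10 light-only peaks inside its long gene body. By nearest start 8 peaks went to Ice2 and 2 to Rora, which shows how the assignment can differ from the gene that holds the peak. Rora RNA rose from 111, 170 and 129 to 295, 269 and 309 CPM (log2 1.09 ± 0.19), and Ice2 was not called (log2 −0.02). The strongest of these peaks, of 1051 bp, lay 7.92 kb from any dark peak (chr9:69028498-69029548, fold 7.62). Clock and Cry1 had light-only peaks within 1 kb of their starts with H3K4me3, at fold 6.03 (chr5:76303605-76303870) and 6.36 (chr10:85185476-85185683). Their RNA overlapped between dark and light, with Clock at 204, 266 and 225 against 230, 232 and 243 CPM and Cry1 at 55.9, 70.6 and 63.2 against 57.9, 63.4 and 62.5 CPM. Fbxl21, an F-box gene that acts on cryptochromes, had a peak 5.56 kb upstream and moved late, with log2 0.21 ± 0.08 at 1 h in the Npas4 experiment (not past the test) but 1.35 ± 0.10 at 3 h and 1.77 ± 0.11 at 6 h of the light pulse.

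Late-response genes, the effectors that follow the immediate-early factors, had light-only peaks in 12 of 25 cases (48.0%). Of these 12, 2 rose at 1 h, Vgf and Plk3, and the median log2 fold change was 0.14. Of the 13 without such a peak 7 rose, with a median of 0.81. Within 50 kb alone, a dark-only peak lay near 9 of the 25 and a shared light peak near 15. Vgf, which encodes a neuropeptide precursor, rose from 155, 184 and 136 to 412, 369 and 386 CPM (log2 1.30 ± 0.14) and by log2 1.81 ± 0.13 at 3 h. Bach2, Adamts9 and Socs3 did not pass the test at 1 h in WT mice but rose at 3 h, by log2 1.04 ± 0.13, 0.94 ± 0.14 and 0.95 ± 0.19. At 1 h of the light pulse Adamts9 fell, by 0.70 ± 0.16 on the log2 scale. The feedback gene Pde10a, which encodes a cyclic nucleotide phosphodiesterase, followed the same course, with log2 0.01 ± 0.06 at 1 h and 1.26 ± 0.06 at 3 h.

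Peptide, receptor and identity genes of the SCN had light-only peaks in 8 of 27 cases (29.6%), the lowest share of the 5 pathway lists. None of these 8 passed the test in WT mice at 1 h, where 2.23% of all genes tested rose and 0.34% fell. Within 50 kb alone, a dark-only peak lay near 11 of the 27 and a shared light peak near 14. Six3 and Six6, homeobox genes of the developing and adult SCN, had light-only peaks, with log2 fold changes of 0.03 ± 0.15 and −0.04 ± 0.14. Vip and Avp had none within 50 kb. Outside neurons, 7 of 8 astrocyte marker genes had a light-only peak as nearest gene or within 50 kb, among them Gfap, Aldh1l1 and Gja1; dark-only peaks lay within 50 kb of 6 of the 8 and shared light peaks of 7. Of 10 oligodendrocyte markers 3 had a light-only peak as nearest gene or within 50 kb, and 8 had a dark-only peak within 50 kb. These lists are short, and the differences between them were not tested. None of the 8 astrocyte genes was called in WT mice.

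Of the 5 genes with the most light-only peaks, Inpp5f rose in WT mice at 1 h and the other 4 did not pass the RNA test, where 2.23% of all genes tested rose. Msi2, which encodes an RNA-binding protein, was nearest to 17, Celf4 to 14, Ntm to 12, and Zfhx3 and Inpp5f to 11 each. Msi2 RNA overlapped between dark (185, 268 and 216 CPM) and light (212, 214 and 225 CPM). These genes also had many other peaks, with 51 shared light and 23 dark-only peaks within 50 kb of Msi2. Of the 119 genes nearest to 4 or more light-only peaks, 112 were tested and 7 rose at 1 h (6.25%), among them Inpp5f, Sik1, Gadd45g, Traf3ip1, Dclk1 and Zfp36l1. Gadd45g, a stress and growth-arrest gene, rose from 35.1, 34.5 and 41.5 to 84.6, 67.7 and 95.2 CPM. In the libraries labelled KO it was 37.8, 61.3 and 59.7 CPM in the dark and 54.8, 61.9 and 65.4 after light, which overlap.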

How the data were processed

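The authors deposited 1 narrowPeak list per mark and lighting condition, with the position, a linear fold enrichment (ratio) over background and a −log10 q-value of each peak. The authors also deposited raw read counts and RPKM per gene symbol for 28 RNA libraries. Per the submitters' processing notes the build was mm10, and MACS2 2.1.1, BWA 0.7.16a, STAR, HTSeq 0.9.1 and featureCounts 1.6.2 were used, without their roles; the use of strand is not given in the sources used here, so overlapping genes are uncertain. Peak summits were assigned to the nearest gene start (RefSeq GRCm38.p6; 21313 of 21999 genes placed), or to either gene end for 4494 genes. Counts were tested with edgeR 4.0.16 (TMM, filterByExpr, quasi-likelihood F-test, Benjamini-Hochberg, adjusted p of 0.05) in 1 fit per experiment; the light-pulse fit held a term for libraries with the suffix s. CPM are TMM-scaled. On data simulated from the WT comparison, 89% of genes changed by log2 1 and 99% of those changed by log2 2 were recovered, with 1 false call. The changed genes were drawn only from those above a minimum mean count, so recovery of low-count genes was not measured. The simulation held no tie between same-numbered libraries.

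Same-numbered WT dark and light libraries deviated together, with r of 0.198, 0.249 and 0.264, so the number was also used as a block. The main fit, which gave the SE and adjusted p of each named gene, held no such block. In the Npas4 experiment the block covered all 12 libraries. It thus also tied KO libraries to each other and to WT libraries of the same number. Genes were named by rank (12 peaks of highest fold and of highest −log10 q, 15 called nearest genes of largest change, genes of fixed lists with a light-only peak, and genes nearest to 4 or more). Members and lists were chosen with earlier results of these data known. No genome sequence was used, so motifs were sought in promoter windows in place of windows around summits. The single-nucleus samples, ChIP input samples and light-pulse RPKM were not analysed here. DESeq2 1.42.0 and the other alternatives are given at the end. 1 named gene is not reported here.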

Additional observations from a re-analysis of the deposited data

Results flagged for a closer look

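The response to 1 h of light differed between genotypes, by the test of the difference itself, for Fos (−1.88 on the log2 scale, KO minus WT) and Nr4a1 (−1.70). In both genes the libraries labelled KO were higher in the dark and lower in the light than the WT libraries, and both calls were lost when 1 of 9 of the 12 libraries was left out. For the 15 most changed genes, each group of 4 libraries (dark CT17 and light 0.5 h) was checked for a library far from the others, 30 checks in all, and none was found; chance would mark about 1 in 20.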

How the results depend on the processing

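With no minimum on −log10 q there were 14116 light-only peaks, of which 35.1% overlapped H3K4me3 and 19.6% lay within 1 kb of a gene start. With a minimum of 10 there were 218 (66.5% and 51.4%), with dark peaks extended by 1 kb 1441 (35.3% and 21%), and with peaks counted as shared only when at least 50% covered 6525 (50.4% and 31.2%). The H3K4me3 share was 41.8% when at least 50% of the peak had to be covered and 41.4% with the light H3K4me3 list alone; the gene start share was 34.8% within 2.5 kb. The share of promoter windows with an AP-1 site was 7.41% with the minimum of 10 and 1.61% with dark peaks extended. No rows touched, so merging changed nothing; the wider summit window for motifs was not run.

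Counts of nearest genes that rose, for the minimum of 10 and for extended dark peaks, were 8 and 46 in WT, 8 and 36 in KO, 3 and 4 at 0.5 h, 6 and 22 at 1 h, 15 and 57 at 3 h, and 9 and 28 at 6 h; these sets hold fewer genes, but at 0.5 h the share for extended dark peaks was also lower, 0.376%. For both settings 0 and 0 genes differed between genotypes by edgeR (32 with extended dark peaks at an unadjusted p under 0.05). The replicate block gave 174 in WT and 135 in KO, DESeq2 gave 7 differing between genotypes, the batch of the labels gave 168 at 1 h and 269 at 3 h, and no library term gave 37 at 6 h. In KO mice a pair of same-numbered libraries had r of only 0.0978, below the 0.1 used here as the mark of pairing, yet the same block covered them. The block moved no other count by over 1.5 times. Leaving out 1 library gave 92 to 116 in WT, 65 to 87 in KO, 0 to 3 differing, 21 to 24 at 0.5 h, 43 to 55 at 1 h, 63 to 114 at 3 h and 27 to 40 at 6 h. The 15 most changed genes kept direction and call in all 150 WT values from alternatives. The light-pulse comparisons rest on 2 to 4 libraries a group, which limits their precision. The cause of the other shifts was not tested.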

Other observations

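Light-only peaks made up 25.1% of the light peaks above the q-value minimum on chromosome X (57 of 227), 20.6% on chromosome 8 (268 of 1298) and 14.9% on chromosome 4 (205 of 1376); X was the highest and 4 the lowest of the 20 chromosomes with peaks. The cause was not tested.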
